A study of Mus musculus with 8 samples.

Results

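The beta-adrenergic and muscarinic signalling genes of the heart were taken by name, as 9 genes of the 39056 in the deposited count table: the receptors Adrb1, Adra1a, Adra1b and Chrm2, the adenylyl cyclases Adcy5 and Adcy6, the protein kinase A catalytic subunit Prkaca, and the receptor kinases Grk2 and Grk5. All 9 passed the filter on low counts, as did 14796 genes in all. RNA came from hearts of 4 HVCN1 null and 4 wild-type (WT) mice, with 1 library per heart, and which parts of the heart each sample held is not given in the sources used here. All were males of 3 months. The background was C57BL/6, and HVCN1 null (Hv1 null in the sample labels, HVCN1-/-) means knockout of the gene for the voltage-gated proton channel. No drug or other treatment is named, and how the knockout allele was made is not given in the sources used here. HVCN1 null hearts are numbered 1 to 4 and WT hearts 5 to 8, and p-values measure the spread between these hearts.

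Noradrenaline and adrenaline act on beta-adrenergic receptors, which couple through the stimulatory G protein to adenylyl cyclase, and the cyclic AMP (cAMP) it makes activates protein kinase A (PKA). This raises the rate and force of the heartbeat. Acetylcholine from the vagus nerve acts on muscarinic receptors, which couple to inhibitory G proteins, lower cAMP and open a potassium channel of the pacemaker and atria. The alpha1-adrenergic receptors use Gq and phospholipase C instead, and receptor kinases turn off receptors that are in use.

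Hvcn1 itself (ENSMUSG00000064267) was counted 16 times in all in the HVCN1 null group and 318 times in the WT group. Its level in CPM (counts per 1e6 counts of the scaled library) was 0.038 to 0.18 against 1.51 to 2.62. Its log2 fold change, here always HVCN1 null over WT, was -4.20 (SE 0.38, edgeR adjusted p = 0.000363). The HVCN1 null libraries held 25851255 to 36396297 counts and the WT libraries 32595114 to 38874640. Heart muscle markers were high in every heart, with a summed level of 47564 to 59231 CPM for 6 genes including Myh6. Atrial markers differed widely between hearts. The mean log2 CPM of 6 atrial genes (Nppa, Myl4, Myl7, Sln, Bmp10 and Mybphl), called the atrial score below, took the values 2.95, 8.73, 6.59 and 4.13 for HVCN1 null hearts 1 to 4. For WT hearts 5 to 8 it took the values 6.72, 0.13, 9.62 and -0.54. Each genotype therefore held samples with much and with little atrial RNA. HVCN1 null heart 2 and WT heart 7 stood highest, and Bmp10 reached 418 and 574 CPM in them. In a bulk sample such as a heart, fewer cells of a type and less RNA per cell cannot be told apart.

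None of the 9 genes passed an adjusted p of 0.05 between HVCN1 null and WT hearts (edgeR quasi-likelihood test, 0 of 9), where 1.14% of all tested genes did. At an unadjusted p under 0.05 there was 1 gene, Adcy5, where 11% of all tested genes passed. DESeq2 called 1 of the 9, again Adcy5, and 3.15% of all genes, and limma's voom called 0. The CPM of the 4 HVCN1 null hearts did not overlap that of the 4 WT hearts in 1 of the 9 genes, Adcy5, and in 7.06% of all genes. The median log2 fold change of the 9 genes was 0.05, with 5 above and 4 below 0, beside -0.01 over all tested genes.

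**Figure D1:**
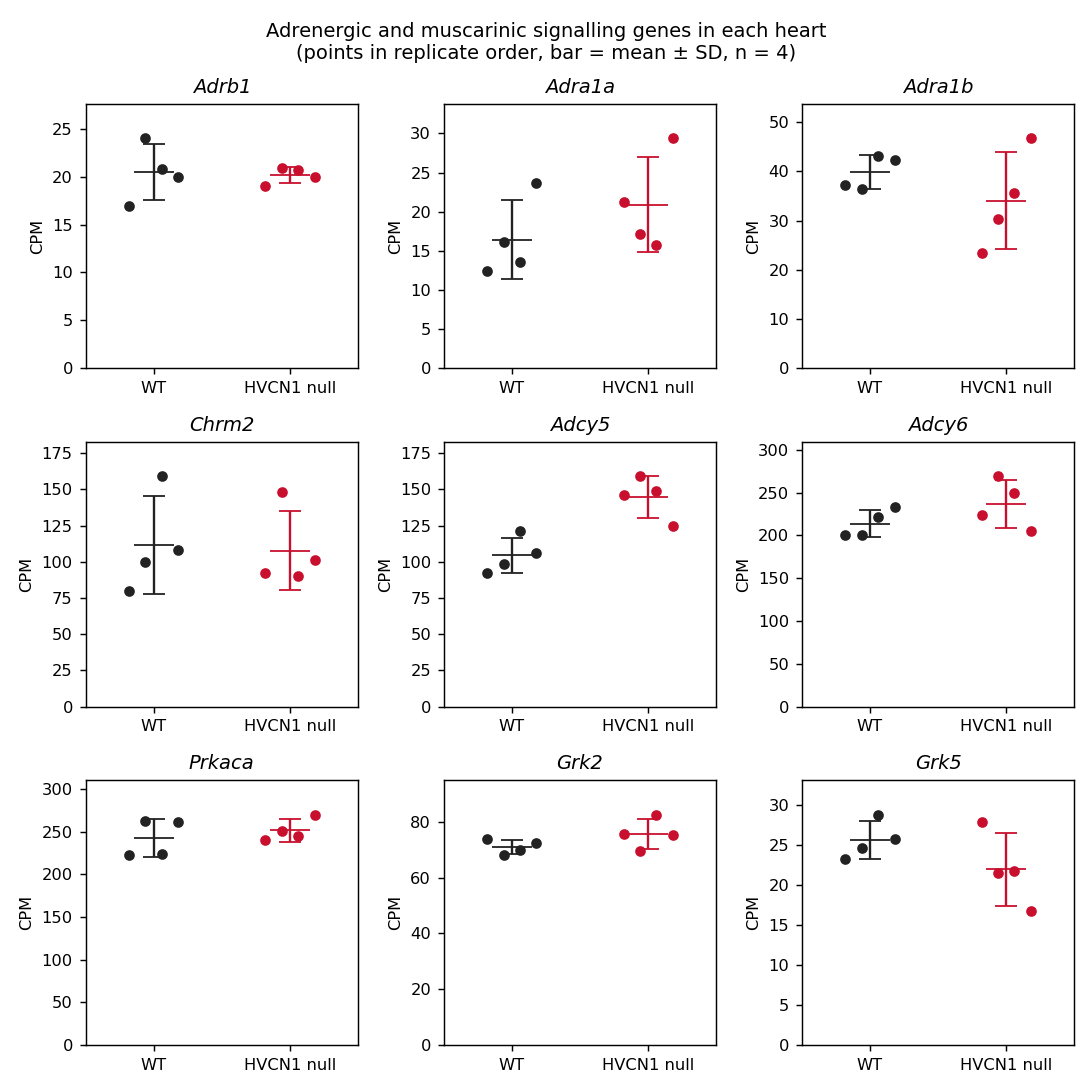
CPM (vertical axes starting at 0) of the 9 genes in each WT heart (black) and HVCN1 null heart (red), with the mean and SD of the 4 hearts as bars. The groups overlap in every panel except that of Adcy5, where the HVCN1 null hearts sit between 125 and 159 CPM and the WT hearts between 92.4 and 121.

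Per kilobase of exon, the order of the 9 transcripts spanned a wide range in WT hearts. Prkaca stood first at 97.7 ± 9 CPM per kilobase (SD, n = 4), followed by Adcy6 at 31.6 ± 2.37. Chrm2 (18.5 ± 5.59), Grk2 (15.9 ± 0.566) and Adcy5 (14.5 ± 1.71) came next, and neighbours among these 3 overlapped between hearts. Below them lay Adra1b at 11.8 ± 1.01, Adrb1 at 6.05 ± 0.861, Grk5 at 3.63 ± 0.335 and Adra1a at 1.89 ± 0.583, each apart from the next in all 4 hearts. In HVCN1 null hearts the order was the same but for Adcy5, which came after Adcy6 at 20.1 ± 1.97 CPM per kilobase, before Chrm2 at 17.8 ± 4.48 and Grk2 at 16.9 ± 1.21. There Adcy5 overlapped Chrm2, Chrm2 overlapped Grk2, and Grk5 (3.11 ± 0.648) overlapped Adra1a (2.4 ± 0.696). The order depends on the length used. With the longest transcript of each gene as length, the WT mean of Grk2 stood above that of Chrm2, and Adra1a overlapped Grk5 in WT hearts.

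Adrb1 encodes the beta1-adrenergic receptor, the main receptor for noradrenaline on heart muscle cells (ENSMUSG00000035283, chr19:56722199-56733113 in GRCm38). Its level was 19, 20.9, 20.7 and 20 CPM in HVCN1 null hearts 1 to 4 and 16.9, 24, 20.8 and 20 CPM in WT hearts 5 to 8. The HVCN1 null hearts lay inside the WT range, with means of 20.1 ± 0.869 and 20.5 ± 2.91 CPM (SD, n = 4 each). The fold, HVCN1 null over WT, was 0.985 with a 95% interval from 0.837 to 1.16, and the log2 fold change was -0.02 (SE 0.11, edgeR adjusted p = 0.98). Among the 9 adrenergic receptor genes, Adrb1 took 25.5% ± 3.62 of the summed CPM per kilobase in HVCN1 null hearts and 24.3% ± 2.88 in WT hearts. Adrb3, the beta3-adrenergic receptor, was at most 0.321 CPM except in WT heart 7, where it reached 2.88 CPM.

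Adra1a and Adra1b encode the alpha1A- and alpha1B-adrenergic receptors. Adra1a (ENSMUSG00000045875, chr14:66635251-66771168) gave 21.3, 17.2, 15.8 and 29.4 CPM in HVCN1 null hearts 1 to 4 and 12.4, 16.1, 13.6 and 23.7 CPM in WT hearts 5 to 8. Its mean was higher in HVCN1 null hearts and the groups overlapped (log2 fold change 0.35, SE 0.23, adjusted p = 0.697). It was 0.14 without HVCN1 null heart 4 and 0.58 without WT heart 8. Adra1b (ENSMUSG00000050541, chr11:43774606-43901210) gave 23.4, 30.3, 35.6 and 46.7 CPM in HVCN1 null hearts and 37.2, 36.4, 43.1 and 42.3 CPM in WT hearts. Here 3 HVCN1 null hearts lay below all WT hearts and HVCN1 null heart 4 lay above them (log2 fold change -0.23, SE 0.18, adjusted p = 0.772). Without HVCN1 null heart 1 the difference was -0.08, and without HVCN1 null heart 4 it was -0.42, neither past the threshold. HVCN1 null heart 4 was the highest of its group for both genes. Adra1b was the leading adrenergic receptor transcript in both genotypes, with 41.7% ± 5.57 of the family's summed CPM per kilobase in HVCN1 null hearts and 47.4% ± 2.8 in WT hearts, while Adra1a took 10.1% ± 2.15 and 7.55% ± 2. Both transcripts share short stretches with other genes (at least 50 bases at 95% identity), Adra1a with 13 genes over at most 91 bases and Adra1b with 171 genes over at most 55 bases, so reads from those stretches are uncertain.

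Chrm2, the M2 muscarinic acetylcholine receptor of the heart (ENSMUSG00000045613, chr6:36388084-36528414), made up 98.7% of the summed CPM per kilobase of the 5 muscarinic receptor genes in HVCN1 null hearts and 99% in WT hearts. Chrm5 had no count in any heart. The level of Chrm2 was 92.4, 148, 90 and 101 CPM in HVCN1 null hearts 1 to 4 and 80, 99.7, 159 and 108 CPM in WT hearts 5 to 8. One heart of each genotype stood far above the rest, HVCN1 null heart 2 and WT heart 7, and these were the hearts with the highest atrial score. With Bmp10 left out the score was 8.74 and 9.71 in them, and 8.58 in HVCN1 null heart 3 and 8.52 in WT heart 5. In HVCN1 null heart 3 and WT heart 5 Chrm2 was the lowest of its group, at 90 and 80 CPM. The means were 108 ± 27.1 and 112 ± 33.8 CPM (SD, n = 4 each), with a log2 fold change of -0.05 (SE 0.22, adjusted p = 0.978) and a 95% interval of the fold from 0.689 to 1.35. Without WT heart 7 the log2 fold change was 0.17, and without HVCN1 null heart 2 it was -0.24, neither past the threshold. A lincRNA on the opposite strand, 9330158H04Rik, shares 134 identical bases with Chrm2, and the strand setting of the authors' counting is not given in the sources used here.

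Some other genes of the muscarinic pathway were also high in HVCN1 null heart 2 and WT heart 7. Kcnj3, a subunit of the muscarinic potassium channel, gave 60.3, 146, 106 and 77.1 CPM in HVCN1 null hearts and 102, 59.4, 238 and 85.6 CPM in WT hearts. Kcnj5, its partner subunit, gave 59.8, 117, 87.6 and 71.4 CPM in HVCN1 null hearts and 74.2, 64.7, 115 and 74.8 CPM in WT hearts. Neither differed between the genotypes beyond the spread between hearts (log2 fold changes -0.32 and 0.03, adjusted p = 0.884 and 0.988). Gnao1, the Go alpha subunit, reached 63.2 CPM in HVCN1 null heart 2 and 72.6 CPM in WT heart 7 against 19 to 39.5 CPM in the others, and Rgs6, which speeds the shut-off of the muscarinic signal, reached 30.2 and 30.7 CPM against 12.7 to 22.2. Adrb1 did not follow this order, at 20.9 CPM in HVCN1 null heart 2 and 20.8 CPM in WT heart 7. Nor did Gnai2, an inhibitory G protein subunit, which was the lowest of its group in both, at 245 and 236 CPM. Rgs4 lay inside the range of the other hearts, at 15.5 and 13.2 CPM. The part of atrial RNA in these levels was not tested. Gnao1, Rgs6, Gnai2 and Rgs4 were set beside Chrm2 after their values had been seen.

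**Figure D2:**
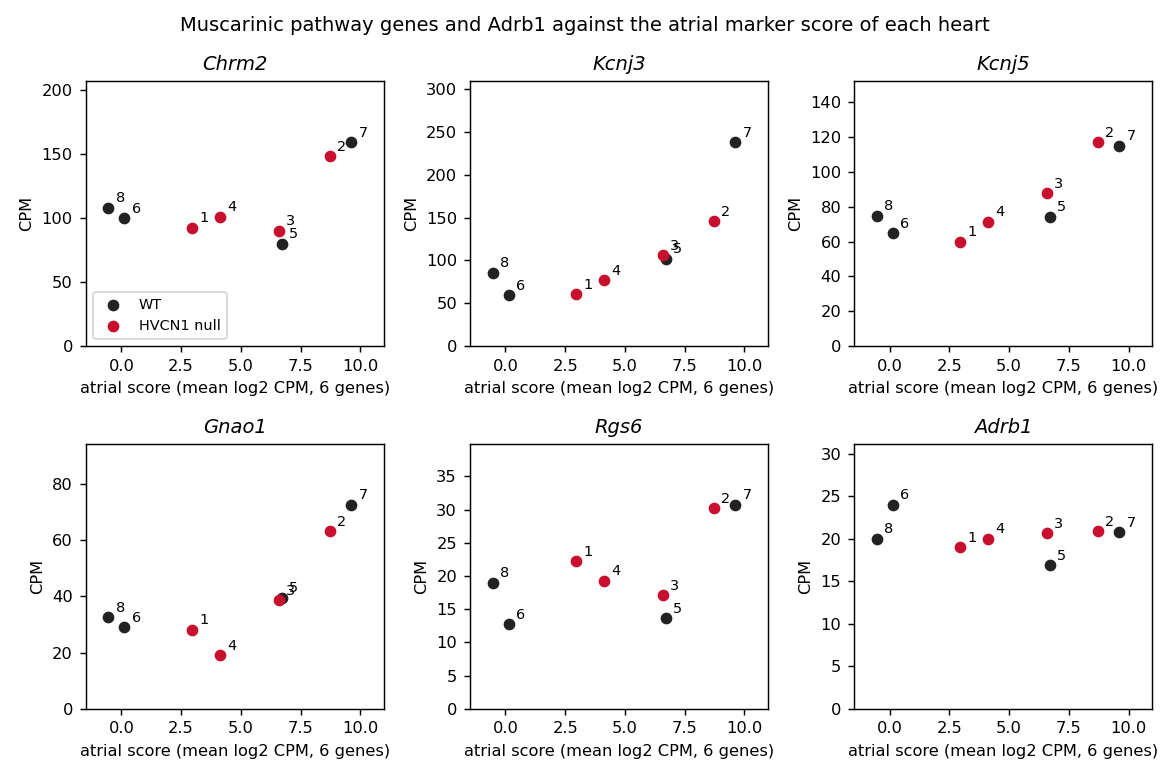
CPM of Chrm2, Kcnj3, Kcnj5, Gnao1, Rgs6 and Adrb1 (vertical axes starting at 0) against the atrial score of each heart (mean log2 CPM of 6 atrial genes), with points numbered by heart, WT in black and HVCN1 null in red. HVCN1 null heart 2 and WT heart 7, at scores of 8.73 and 9.62, are the highest for every gene but Adrb1, whose values stay between 16.9 and 24 CPM.

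Over the 8 hearts, the 5 genes whose log2 CPM followed that of Chrm2 most closely were Arl5a (Pearson r = 0.984), Copa (0.984), Tmem263 (0.978), Nr3c2 (0.967) and Acaca (0.966), out of 14795 others. For Rgs6, Kcnj5 and Kcnj3 r was 0.836, 0.801 and 0.733, and for the atrial myosin light chain Myl4 it was 0.286. The 5 genes closest to Adrb1 were Atg14 (0.907), Gdi2 (0.904), BC106179 (0.891), Ccdc171 (0.853) and Rgn (0.85). These values describe 8 hearts that share 1 scaling of library size, and they carry no test.

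Adcy5 stood out among the 9 genes. It encodes adenylyl cyclase type 5 (ENSMUSG00000022840, chr16:35154877-35305738), which with type 6 makes most of the cAMP of heart muscle cells and is inhibited by Gi and by calcium. Its level was 146, 159, 149 and 125 CPM in HVCN1 null hearts 1 to 4 and 92.4, 98.6, 121 and 106 CPM in WT hearts 5 to 8, so that all 4 HVCN1 null hearts lay above all 4 WT hearts. The closest were HVCN1 null heart 4 and WT heart 7. The means were 145 ± 14.1 and 104 ± 12.3 CPM (SD, n = 4 each), a fold of 1.38 with a 95% interval from 1.17 to 1.64. The log2 fold change was 0.47 (SE 0.11, unadjusted p = 0.00163, adjusted p = 0.0944, edgeR), which did not pass the threshold. A two-sided exact permutation test on mean CPM gave p = 0.0286 (unadjusted), the smallest that 70 assignments allow. Any gene whose groups do not overlap gets this p, so it only restates the separation, which 7.06% of all tested genes showed. For the other genes of the 9, p ran from 0.171 to 0.8 in this test. In 18 other fits the log2 fold change ran from 0.42 to 0.55, and 2 of them called the gene, DESeq2 (adjusted p = 0.0023) and the fit without WT heart 7 (adjusted p = 0.0474, with 0.89% of genes called). With the atrial score as a covariate it was 0.44 (adjusted p = 0.0936, edgeR, with 1.53% of genes called). Within the 4 hearts of higher and of lower atrial score, 2 of each genotype, it was 0.52 and 0.42 (adjusted p = 0.766 and 0.341, edgeR). These 2 fits were added after the data had been seen, and neither called the gene. Among the hearts of lower score, HVCN1 null hearts had scores of 2.95 and 4.13 and WT hearts 0.13 and -0.54. Score and genotype therefore went together in that set.

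Adcy6, the type 6 enzyme (ENSMUSG00000022994, chr15:98589973-98610076), was the more abundant cyclase. Its level was 224, 269, 250 and 205 CPM in HVCN1 null hearts and 200, 201, 222 and 233 CPM in WT hearts, and the groups overlapped (log2 fold change 0.15, SE 0.11, adjusted p = 0.751). An antisense gene, Gm29331, shares 495 identical bases with it. Adcy6 took 49.7% ± 2.07 of the summed CPM per kilobase of the 10 cyclase genes in HVCN1 null hearts and 50.8% ± 2.02 in WT hearts. Adcy5 took 28.6% ± 0.22 and 23.3% ± 1.11, with ranges of 28.4% to 28.9% and 22.5% to 25% that did not overlap. The remaining cyclases were lower, and Adcy1 ran from 1.14 to 36.2 CPM with its highest values in HVCN1 null heart 2 and WT heart 7. None of the 9 tested cyclase genes passed the threshold with edgeR, with 5 higher and 4 lower, and DESeq2 called 1 of them, Adcy5.

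A ratio of 2 genes within a heart does not depend on the scaling of library size, so 6 ratios of counts per kilobase were compared between the genotypes. The quotient of Adcy6 over Adcy5 was 1.63, 1.79, 1.79 and 1.73 in HVCN1 null hearts 1 to 4, against 2.3, 2.16, 1.94 and 2.33 for WT hearts 5 to 8. All 4 HVCN1 null hearts lay below all WT hearts. The log2 ratio was 0.79 ± 0.06 against 1.12 ± 0.12, a difference of -0.33 (two-sided exact permutation p = 0.0286, adjusted over the 6 ratios 0.171). Any ratio whose groups do not overlap gets this p, the smallest that 70 assignments allow, and Adcy5 alone already separated the groups. With 1 HVCN1 null heart left out p was 0.0571. Adra1b to Adra1a was 2.06 ± 0.43 against 2.68 ± 0.38 on the log2 scale, a difference of -0.62 with overlapping groups (exact permutation p = 0.0571, adjusted 0.171). Grk5 to Grk2 differed by -0.33 (exact permutation p = 0.171, adjusted 0.343), and by -0.45 with p = 0.0286 without HVCN1 null heart 1. Adrb1 to Adra1a differed by -0.36 (p = 0.229, adjusted 0.343), and Chrm2 to Adrb1 and Prkaca to Prkacb each by -0.03 (p = 0.886 and 0.857, both adjusted to 0.886, exact permutation). None of the 6 ratios passed 0.05 after adjustment.

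**Figure D3:**
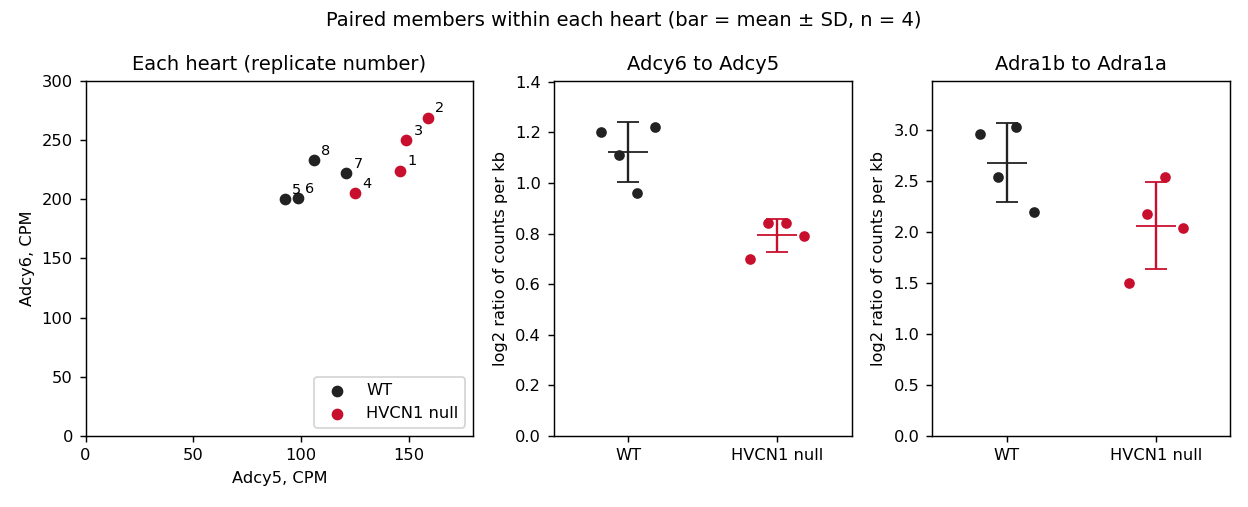
Left, CPM of Adcy6 against CPM of Adcy5 in each heart (both axes starting at 0, points numbered by heart). Middle and right, the log2 ratio of counts per kilobase for Adcy6 to Adcy5 and for Adra1b to Adra1a, with the mean and SD of 4 hearts. The Adcy6 to Adcy5 ratio lies at 0.70 to 0.84 for the red HVCN1 null points and at 0.96 to 1.22 for the black WT points, and the Adra1b to Adra1a ratios overlap.

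Prkaca encodes the main catalytic subunit of PKA, the kinase that cAMP releases from its regulatory subunits (ENSMUSG00000005469, chr8:83972993-83996443). Its level was 240, 251, 245 and 270 CPM in HVCN1 null hearts 1 to 4 and 223, 263, 224 and 261 CPM in WT hearts 5 to 8. The groups overlapped, with a log2 fold change of 0.05 (SE 0.10, adjusted p = 0.935) and a 95% interval of the fold from 0.89 to 1.2. Among 6 PKA subunit genes Prkaca took 44.3% ± 3.04 of the summed CPM per kilobase in HVCN1 null hearts and 46.7% ± 1.88 in WT hearts. Prkar1a, a regulatory subunit that holds the kinase inactive, took 45.7% ± 2.93 and 42.3% ± 1.56. The CPM of Prkar1a was 408 to 495 with HVCN1 null and 357 to 390 with WT, without overlap (log2 fold change 0.25, adjusted p = 0.399). Pkia, an inhibitor peptide of PKA, was 111 to 158 CPM against 150 to 207 (log2 fold change -0.38, adjusted p = 0.32).

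The receptor kinases showed no difference past the threshold with edgeR either. Grk2, which phosphorylates active beta-adrenergic receptors so that arrestins can bind (ENSMUSG00000024858, chr19:4286001-4306222), gave 75.6, 69.4, 82.6 and 75.3 CPM in HVCN1 null hearts and 73.8, 68.1, 69.8 and 72.3 CPM in WT hearts. Its log2 fold change was 0.09 (SE 0.08, adjusted p = 0.813), with the narrowest interval of the fold among the 9 genes, 0.938 to 1.21. Grk5, a kinase held at the membrane (ENSMUSG00000003228, chr19:60889749-61095968), gave 27.9, 21.5, 21.8 and 16.7 CPM in HVCN1 null hearts and 23.2, 24.6, 28.8 and 25.8 CPM in WT hearts. Here 3 HVCN1 null hearts lay below all WT hearts, and HVCN1 null heart 1 was above 3 of them (log2 fold change -0.22, SE 0.14, adjusted p = 0.673). Leaving out HVCN1 null heart 1 gave -0.36 and leaving out HVCN1 null heart 4 gave -0.11. Grk5 overlaps Zfp950 on the opposite strand and shares 283 bases at 97.9% identity with Gm16284, so some of its reads are uncertain. Grk2 took 61.3% of the summed CPM per kilobase of the 5 receptor kinases in HVCN1 null hearts and 58.1% in WT hearts, and Grk5 11.3% and 13.3%. Grk4, at 1.14 to 1.58 CPM against 1.85 to 2.81, did not overlap between the genotypes (log2 fold change -0.77, adjusted p = 0.139).

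The other genes of the pathway, 126 tested of 139 listed, gave 2 that passed the threshold with edgeR, both higher in HVCN1 null hearts, where 0.743% of all genes were called higher and 0.399% lower. Their median log2 fold change was 0.03, with 73 above and 53 below 0. At an unadjusted p under 0.05 there were 13 of 126, where 11% of all tested genes passed, and 7 of 126 did not overlap between the genotypes, where 7.06% of all genes did not. With edgeR no gene was called among the receptors, G proteins, cyclases, receptor kinases and arrestins, PKA subunits and inhibitors, A-kinase anchoring proteins, phosphodiesterases, cAMP sensors of the Epac and Popeye families, RGS proteins, muscarinic potassium channel subunits, Gq effectors, PKA substrates, or genes of transmitter synthesis, uptake and breakdown. Outside the early genes described last, DESeq2 called Adcy5 among the cyclases and Rrad among the PKA substrates.

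Around the cyclases, among G proteins, phosphodiesterases, scaffolds and cAMP sensors, no gene passed the threshold with edgeR or DESeq2. Gnas, the stimulatory G protein, was the highest of its list per kilobase in WT hearts (72.3, with Gnai2 at 66.4, against 72.5 and 74 in HVCN1 null hearts) and gave 740 to 882 CPM in HVCN1 null hearts and 783 to 827 CPM in WT hearts (log2 fold change 0.00). The inhibitory subunits Gnai3 and Gnai2 had the smallest p of the 19 tested G protein genes (log2 fold changes 0.22 and 0.16, adjusted p = 0.656 and 0.683). Of 15 phosphodiesterases, which break down cyclic nucleotides, Pde8b and Pde1b came closest to the threshold (log2 fold changes -0.46 and -0.29, adjusted p = 0.468 and 0.589), and Pde4a was the highest per kilobase in both genotypes at 113 to 121 and 99.8 to 124 CPM. Akap8 and Akap12, of the scaffolds that hold PKA in place, differed by 0.14 and 0.15 on the log2 scale (adjusted p = 0.616 and 0.78), while Akap1, the highest of them per kilobase, differed by 0.01. Popdc2 and Popdc3, membrane proteins that bind cAMP, differed by 0.19 and -0.12 (adjusted p = 0.697 and 0.84).

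Among the RGS proteins, which shorten G protein signals, Rgs3 was 29.3 to 30.7 CPM in HVCN1 null hearts and 32.5 to 40 CPM in WT hearts, without overlap (log2 fold change -0.24, adjusted p = 0.267). Rgs10 differed by -0.38 (adjusted p = 0.537), and Rgs5, the highest of the list per kilobase, by -0.04. On the Gq branch that the alpha1 receptors use, Prkcd and Plcb1 came closest to the threshold (log2 fold changes 0.32 and 0.27, adjusted p = 0.343 and 0.423), and Plcb4, the highest per kilobase in WT hearts only, had a log2 fold change of -0.14. Plcb1, a phospholipase C, was 7.12 to 8.47 CPM against 5.72 to 6.8 and did not overlap. Of the PKA substrates, Rrad, a brake on the L-type calcium channel, was 162 to 198 CPM against 207 to 245, without overlap (log2 fold change -0.36, adjusted p = 0.183, and 0.0366 with DESeq2). Ppp1r1a, an inhibitor of protein phosphatase 1 once PKA has phosphorylated it, was 0.51 to 1.5 CPM against 1.35 to 2.41 (log2 fold change -0.99, adjusted p = 0.309), and Tnni3, the highest of the list per kilobase, differed by 0.12. Among genes that break down the transmitters, Bche differed by -0.18 (adjusted p = 0.734).

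**Figure D4:**
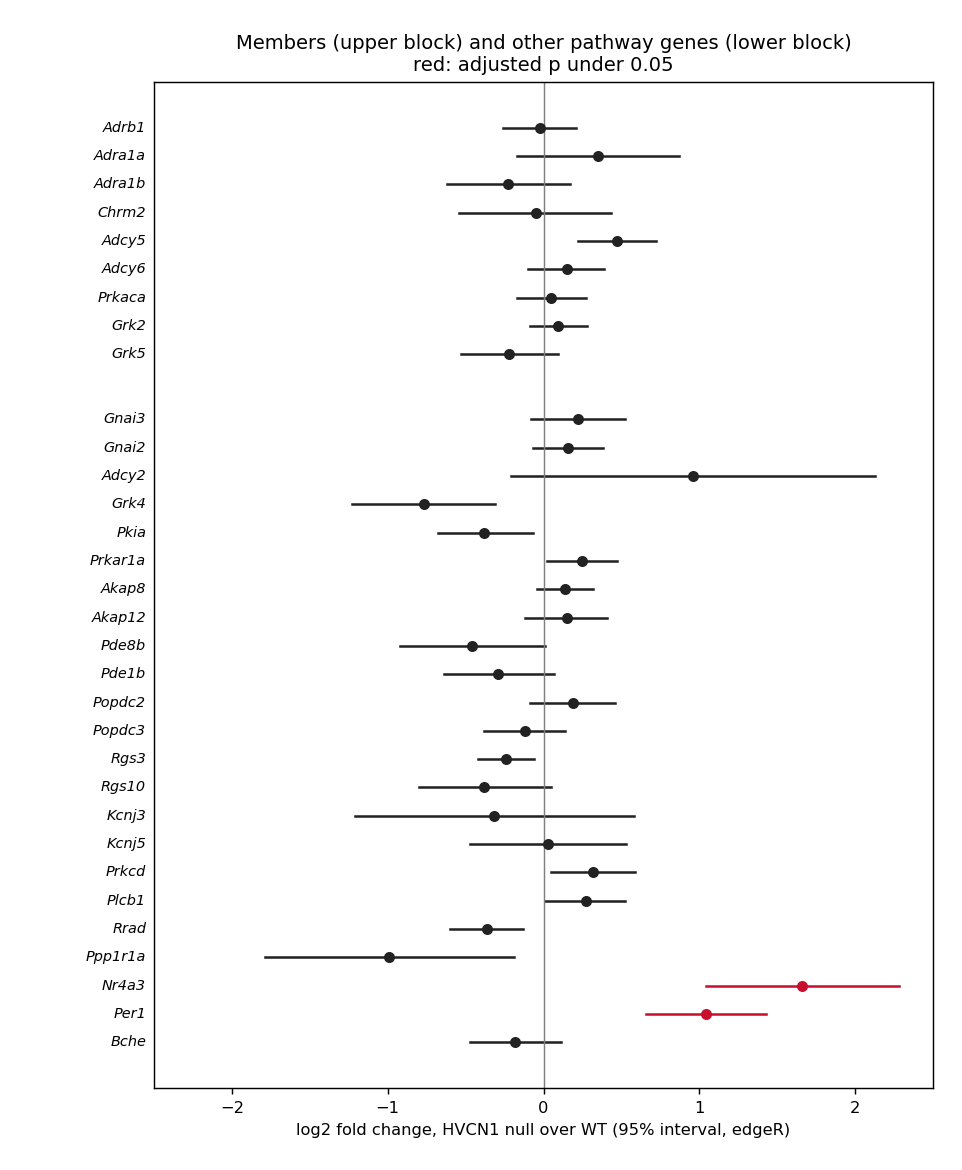
Log2 fold change (HVCN1 null over WT, horizontal axis) with its 95% interval from edgeR for the 9 genes (upper block) and for other genes of the pathway lists (lower block), those past an adjusted p of 0.05 in red. The intervals of the 9 genes include 0 except for Adcy5, at 0.47 with an interval from 0.22 to 0.72, and the red points are Nr4a3 at 1.66 and Per1 at 1.04.

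The 2 genes that rose (edgeR) both came from the list of 10 early genes known to be induced by cAMP. Nr4a3, an orphan nuclear receptor induced within the hour by hormones (ENSMUSG00000028341, chr4:48045153-48086447), gave 20.9, 16.5, 12.5 and 7.46 CPM in HVCN1 null hearts 1 to 4 and 5.44, 4.02, 4.97 and 3.58 CPM in WT hearts 5 to 8. All HVCN1 null hearts lay above all WT hearts, with a fold of 3.17 (95% interval 2.06 to 4.87, log2 fold change 1.66, SE 0.28, edgeR adjusted p = 0.0202). Per1, a component of the circadian clock that cAMP and glucocorticoids also induce (ENSMUSG00000020893, chr11:69095217-69109960), gave 96.9, 103, 96.8 and 65.1 CPM in HVCN1 null hearts and 56.8, 38.9, 42.4 and 37.3 CPM in WT hearts. These did not overlap either, with a fold of 2.06 (95% interval 1.58 to 2.69, log2 fold change 1.04, SE 0.17, adjusted p = 0.0178). HVCN1 null heart 4 was the lowest of its group and WT heart 5 the highest of its group for both genes. The time of day at which hearts were taken is not given in the sources used here.

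The remaining 8 genes of the early list did not pass with edgeR on all hearts. Sik1, a kinase induced by cAMP, was 66.8 to 114 CPM against 46.4 to 70.4 (log2 fold change 0.67, adjusted p = 0.127). It was called by DESeq2 (adjusted p = 0.00701) and without HVCN1 null heart 4 (adjusted p = 0.0384, edgeR). Nr4a1 did not pass in either, at 56.3 to 105 CPM against 22.2 to 61 (log2 fold change 0.79, adjusted p = 0.322). Fos was the only one of the 10 with a log2 fold change below 0, at -0.04, and Dusp1, the highest per kilobase, had 0.17. The median of the 10 was 0.41, beside -0.01 over all tested genes. The list was chosen with earlier results of these data known and holds both called genes, so this median is only a description. The calls of Nr4a3 and Per1 were near the limit in some settings. Without WT heart 6 the adjusted p was 0.0807 for Nr4a3 and 0.0776 for Per1, and without WT heart 8 it was 0.0659 and 0.0605. Per1 also lost its call without HVCN1 null hearts 1 (0.0577) or 3 (0.0556), and Nr4a3 with voom (0.0552). Over 18 other fits the log2 fold change ran from 1.42 to 1.91 for Nr4a3 and from 0.97 to 1.20 for Per1, with 13 and 12 of them past the threshold. With the atrial score as a covariate it was 1.63 (adjusted p = 0.0185) and 0.99 (adjusted p = 0.0145).

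**Figure D5:**
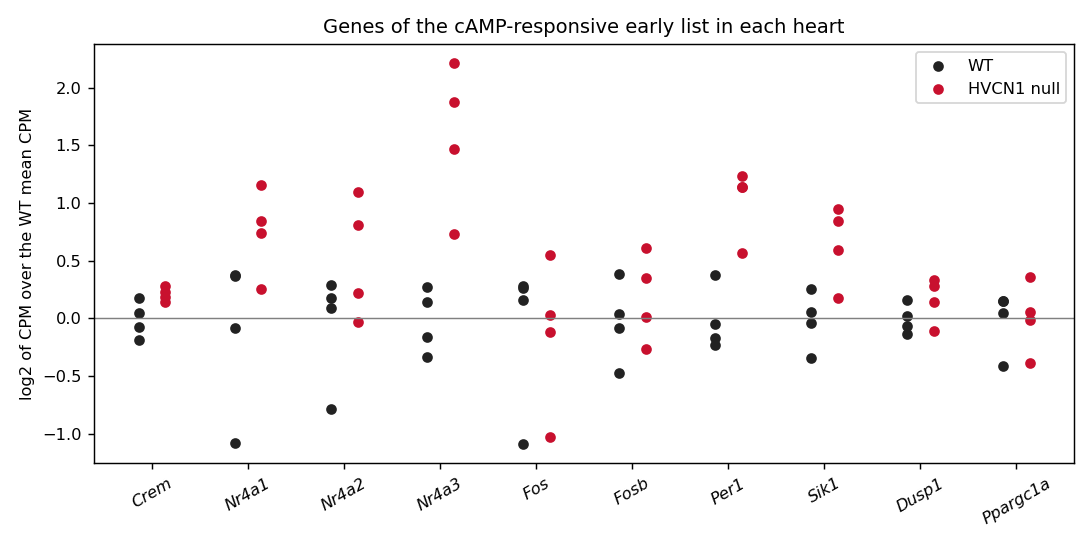
Log2 of CPM over the mean CPM of the WT hearts (vertical axis) for the 10 genes of the list of cAMP-responsive early genes, with 1 point per heart, WT in black and HVCN1 null in red. The colours separate for Nr4a3 and Per1, the 2 genes past an adjusted p of 0.05, and mix for the other 8.

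The cAMP response element is the DNA motif through which the factor CREB acts, and its core half-site reads TGACG, or CGTCA on the opposite strand. The 250 bases before the start were searched for both forms, with a palindrome counted once for each, in the RefSeq promoters of GRCm38.p6. A half-site was present in 17.8% of 32851 promoters, and 4 or more in 0.137%. Of the 9 signalling genes 6 had an entry, and 2 of these held a half-site, Adrb1 and Prkaca. Of the 10 early genes 8 had an entry and all 8 held a half-site, with 4 each before Nr4a1, Nr4a2 and Nr4a3, but these genes were listed because they are known to respond to cAMP. The stretches below are those of 3 signalling genes and of the 2 genes that rose, on the strand of the gene, with half-sites in capitals. They lie at chr19:56721867-56722116 (Adrb1), chr16:35154614-35154863 (Adcy5), chr8:83972728-83972977 (Prkaca), chr11:69099902-69100151 (Per1) and chr4:48045055-48045152 (Nr4a3), all on the plus strand. For Nr4a3 the stretch stops before the first exon that GENCODE annotates, which leaves 3 of the 4 half-sites.
Adrb1: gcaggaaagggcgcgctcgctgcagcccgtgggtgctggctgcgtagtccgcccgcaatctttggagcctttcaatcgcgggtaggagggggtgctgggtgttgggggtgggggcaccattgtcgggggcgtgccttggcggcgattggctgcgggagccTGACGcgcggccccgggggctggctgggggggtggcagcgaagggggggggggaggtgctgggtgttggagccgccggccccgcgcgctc
Adcy5: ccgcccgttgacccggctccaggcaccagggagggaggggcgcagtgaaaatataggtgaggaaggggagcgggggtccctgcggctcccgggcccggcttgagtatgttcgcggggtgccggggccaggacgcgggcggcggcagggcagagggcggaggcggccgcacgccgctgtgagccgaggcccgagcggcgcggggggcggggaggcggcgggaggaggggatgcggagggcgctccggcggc
Prkaca: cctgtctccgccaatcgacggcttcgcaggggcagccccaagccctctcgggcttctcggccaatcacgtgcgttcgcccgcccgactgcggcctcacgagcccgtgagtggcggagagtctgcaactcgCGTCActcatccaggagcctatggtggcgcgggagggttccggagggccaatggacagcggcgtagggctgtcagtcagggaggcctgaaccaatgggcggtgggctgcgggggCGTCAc
Per1: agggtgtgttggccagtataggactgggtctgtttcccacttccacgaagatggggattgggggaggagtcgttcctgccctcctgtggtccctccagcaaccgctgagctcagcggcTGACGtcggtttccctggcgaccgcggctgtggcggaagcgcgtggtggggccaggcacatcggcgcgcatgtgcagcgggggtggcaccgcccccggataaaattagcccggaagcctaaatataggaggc
Nr4a3: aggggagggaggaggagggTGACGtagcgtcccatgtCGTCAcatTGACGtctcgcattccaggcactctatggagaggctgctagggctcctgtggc
The half-site of Adrb1 begins 90 bases before the start, those of Prkaca 120 and 6 bases before it, and that of Per1 132 bases before it. RefSeq gives a second start for both of the latter, which for Prkaca has no half-site and for Per1 has 1, at 246 bases before that start (chr11:69098699-69098948). The Per1 stretch shown lies inside the span of the gene given above, where GENCODE annotates no exon. Adcy5, the signalling gene with the largest difference, has none in this window. A match of letters is a description and says nothing about whether a factor was bound.

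Markers of nerve and vessel cells were examined beside these results. The summed level of 9 autonomic neuron and Schwann cell markers was 11.8 to 15 CPM in HVCN1 null hearts and 5.67 to 10.3 CPM in WT hearts, without overlap, and 0 of the 4 that could be tested passed. Of these, the Schwann cell gene Sox10 (log2 fold change 0.93, adjusted p = 0.158) did not overlap between the genotypes. Neuronal markers were near 0, with Npy and Snap25 at 0.19 CPM or less in every heart. Th, which makes the precursor of noradrenaline, was at most 0.0529 CPM, and Chat, which makes acetylcholine, had no count. Other genes of the same transmitter list were counted in every heart, with Dbh at 2.19 to 6.9 CPM and Ddc at 0.57 to 2.35 CPM. Among 7 smooth muscle and pericyte markers Acta2 rose (261 ± 101 against 105 ± 18.9 CPM, log2 fold change 1.32, adjusted p = 0.0466), and the summed level of the list was 733 to 1136 CPM against 636 to 753. The other 6 did not pass. Cspg4 was lower without overlap (21.7 to 37.8 against 42.7 to 44.9 CPM, log2 fold change -0.45, adjusted p = 0.26), Pdgfrb had -0.10, Tagln and Abcc9 each 0.08, Cnn1 0.22 and Myh11 0.30. The atrial sum was 310 to 4525 CPM against 85 to 8368, and the sum of 5 adipocyte markers was 0.991 to 11.5 CPM against 0.155 to 32, highest in WT heart 7. The 5 ventricular markers summed to 9195 to 13561 CPM against 7647 to 13896, the 5 endothelial markers to 767 to 987 against 821 to 1020, and the 5 fibroblast markers to 654 to 1031 against 698 to 1055, with none called. The part of these cell types in the values of Adcy5, Nr4a3 and Per1 was not tested.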

How the data were processed

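Hearts of 4 HVCN1 null and 4 WT mice were profiled by poly-A RNA-seq with paired reads. STAR (alignment) and featureCounts (counting on Ensembl genes) were the authors' tools, and the deposited counts are raw. The submitters' processing notes name mm10 and GRCm38, while the study's text names a human build. The gene identifiers are mouse, and 38872 of 39056 were matched without their version to GENCODE M21 (GRCm38) for symbols, positions and exon lengths.

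R 4.3.3 and edgeR 4.0.16 gave CPM on TMM-scaled library sizes. Genes kept by filterByExpr with its defaults (14796) were tested with edgeR's quasi-likelihood test on all 8 hearts, with genotype as the only term and Benjamini-Hochberg adjustment over all tested genes (adjusted p under 0.05). SE is the log2 fold change divided by the root of F. Nearest patterns used log2 CPM with a prior count of 2. For ratios and single genes, all 70 assignments of hearts were enumerated in an exact permutation test (two-sided). Simulated counts with known fold changes were used to check the fits. Total counts were 25851255 to 38874640 per heart, which sets the precision of low genes such as Grk4.

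Groups came from the sample labels. Alternatives were RLE scaling or none, 2 other filters, DESeq2 1.42.0, limma 3.58.1 voom, an atrial score as a covariate, other thresholds, each heart left out, medians of the ratios, and the longest transcript as length. The score without Bmp10 and fits of the 4 hearts with higher or lower score were added after seeing the data. The members and gene lists were chosen with earlier results of these data known. Besides these and the markers, each list's called genes, its 2 genes of smallest p and its highest gene per kilobase in WT hearts are named. BLAST+ 2.17.0 served to find shared stretches, and matplotlib 3.10.9, numpy 2.4.6 and pandas 2.3.3 ran under Python 3.11.15. Labels name no batch. RT-PCR was not analysed here. Some listed genes are counted in the totals of their lists but not named.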

Additional observations from a re-analysis of the deposited data

How the results depend on the processing

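The number of DEGs over all tested genes, 169, became 466 with DESeq2, 56 at an adjusted p under 0.01, 24 and 71 in the 4 hearts with the higher and the lower atrial score, and 71 to 152 with 1 heart left out. Of the 9 signalling genes, 1 was called with DESeq2 and 1 at an adjusted p under 0.1, and 0 to 1 with a heart left out, in each case Adcy5 (log2 fold change 0.48 with DESeq2, 0.55 without WT heart 7, 0.42 to 0.55 over hearts left out). Over all pathway lists 2 genes were called, and 5 with DESeq2 (Adcy5, Nr4a3, Per1, Rrad and Sik1), 1 with voom, 0 in each fit of 4 hearts, and 0 to 3 with a heart left out. Adrb1 changed sign to 0.13 (hearts of higher atrial score), 0.01 (score without Bmp10 as covariate) and 0.02 (no scaling), with -0.09 to 0.06 over hearts left out. Chrm2 ran from -0.24 to 0.17 over hearts left out. In the hearts of lower atrial score Adcy6 was 0.00 and Prkaca -0.03, and Kcnj5 -0.07, while Popdc3 was 0.08 in those of higher score. Kcnj5 was -0.11 with the atrial score as covariate and -0.10 without Bmp10 in it, and Kcnj5 ran from -0.17 to 0.24 and Kcnj3 from -0.58 to 0.25 over hearts left out. The difference of the log2 ratio Adcy6 to Adcy5 was -0.34 by medians (exact permutation p = 0.0571) and -0.38 to -0.30 over hearts left out. Over hearts left out Grk5 to Grk2 ran from -0.45 to -0.21, Chrm2 to Adrb1 from -0.17 to 0.15, and Prkaca to Prkacb from -0.09 to 0.04. With the longest transcript as length the WT level per kilobase was 6.93 for Adrb1, 3.85 for Adra1a, 35.5 for Adcy6, 107 for Prkaca and 20.4 for Grk2. The cause of these changes was not tested in any setting. No paired analysis was possible because no replicate number occurs in both genotypes. Scaling moved the median log2 fold change of all genes by less than 0.1 (-0.01, 0.00 and 0.03). With library sizes not scaled, 72% of the DEGs were higher in HVCN1 null hearts, beside 65.1%.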
